A study of Homo sapiens with 2 samples.

Results

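The nuclear genes for mitochondrial ribosomal proteins, named MRPL for the large and MRPS for the small subunit, were examined in a map of JARID2 on the chromatin of MDA-MB-231 cells, an established human triple-negative breast cancer line. Members were the rows of the authors' annotated peak list whose symbol was MRPL or MRPS followed by a number and, at most, a letter A to C. They came to 71 of the 67071 listed peaks and to 41 of the 77 family genes in RefSeq. Pseudogenes were left out. The study had 1 library of chromatin precipitated with a polyclonal JARID2 antibody, from untreated cells, and 1 library of input DNA, also untreated and with no antibody. Only the peak list of the JARID2 ChIP library was analysed here. It has no replicate, so no value below has a replicate error and no test between conditions could be made. Values of tags, fold enrichment and false discovery rate (FDR) are the authors' own for each peak, and library depth is unknown.

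The mitochondrial ribosome makes the few proteins encoded by mitochondrial DNA, which are subunits of the respiratory chain and ATP synthase. Its own proteins are encoded in the nucleus, made in the cytosol and imported. Their genes are expressed in nearly all tissues, and many have GC-rich promoters without a TATA box. JARID2 is an accessory subunit of Polycomb repressive complex PRC2, which methylates lysine 27 of histone H3 and is best known at silent developmental genes. A chromatin map of JARID2 holds no measure of expression, so the activity of these genes in the cells was not measured.

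The promoters of 6 family genes are shown because they carry the contrasts described below. MRPL17 had the promoter peak with most tags, MRPL37 and MRPL53 were among the next, MRPS18A and MRPS11 had the largest fold enrichments of peaks over a start site in small-subunit names, and MRPL52 had no listed peak at all. Each sequence is the RefSeq promoter on GRCh38.p14, 300 bases 5′ to 3′ on the gene's strand, from 250 bases before the RefSeq gene start to 50 after it. The peak list is on hg19 and the pairing is by gene symbol, so the place of a peak within a printed window was not determined. Capitals mark matches, on either strand, to the ETS letters CCGGAAG, the NRF1 letters GCATGCGC, the YY1 letters AAGATGGC, the E2F letters TTCCCGCC, the E-box CACGTG, the GC box GGGGCGG or the CCAAT box CCAAT. The windows are chr11:6683291-6683590 (minus strand) for MRPL17, chr1:54199917-54200216 (plus) for MRPL37, chr2:74472631-74472930 (minus) for MRPL53, chr6:43687742-43688041 (minus) for MRPS18A, chr15:88467458-88467757 (plus) for MRPS11 and chr14:22829637-22829936 (plus) for MRPL52.
MRPL17: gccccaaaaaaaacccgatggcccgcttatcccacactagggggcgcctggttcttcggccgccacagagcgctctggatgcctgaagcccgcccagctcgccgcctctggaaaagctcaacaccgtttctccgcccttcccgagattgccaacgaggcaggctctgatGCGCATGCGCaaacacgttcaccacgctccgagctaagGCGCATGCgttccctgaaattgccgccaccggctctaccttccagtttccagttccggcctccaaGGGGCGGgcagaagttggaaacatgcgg
MRPL37: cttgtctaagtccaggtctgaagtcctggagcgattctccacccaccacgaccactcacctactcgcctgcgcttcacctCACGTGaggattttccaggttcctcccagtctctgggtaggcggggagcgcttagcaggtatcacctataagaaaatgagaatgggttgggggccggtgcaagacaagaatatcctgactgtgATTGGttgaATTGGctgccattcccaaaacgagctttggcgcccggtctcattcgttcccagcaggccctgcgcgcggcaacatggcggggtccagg
MRPL53: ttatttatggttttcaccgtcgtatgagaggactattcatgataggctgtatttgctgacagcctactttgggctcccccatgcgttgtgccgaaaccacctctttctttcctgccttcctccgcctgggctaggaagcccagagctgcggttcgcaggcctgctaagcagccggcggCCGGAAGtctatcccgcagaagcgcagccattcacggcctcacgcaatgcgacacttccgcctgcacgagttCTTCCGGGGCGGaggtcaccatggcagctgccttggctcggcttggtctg
MRPS18A: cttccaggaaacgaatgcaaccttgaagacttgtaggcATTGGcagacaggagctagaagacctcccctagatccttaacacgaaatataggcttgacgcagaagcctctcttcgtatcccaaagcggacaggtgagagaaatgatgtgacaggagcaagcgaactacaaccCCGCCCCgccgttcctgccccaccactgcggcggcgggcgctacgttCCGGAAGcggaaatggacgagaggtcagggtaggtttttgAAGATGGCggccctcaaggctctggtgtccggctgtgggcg
MRPS11: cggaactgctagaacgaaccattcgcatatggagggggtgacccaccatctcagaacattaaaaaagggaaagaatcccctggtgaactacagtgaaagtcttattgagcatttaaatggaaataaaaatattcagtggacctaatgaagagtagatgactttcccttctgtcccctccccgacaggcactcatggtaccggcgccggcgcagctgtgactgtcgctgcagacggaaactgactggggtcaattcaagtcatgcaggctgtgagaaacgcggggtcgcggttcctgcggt
MRPL52: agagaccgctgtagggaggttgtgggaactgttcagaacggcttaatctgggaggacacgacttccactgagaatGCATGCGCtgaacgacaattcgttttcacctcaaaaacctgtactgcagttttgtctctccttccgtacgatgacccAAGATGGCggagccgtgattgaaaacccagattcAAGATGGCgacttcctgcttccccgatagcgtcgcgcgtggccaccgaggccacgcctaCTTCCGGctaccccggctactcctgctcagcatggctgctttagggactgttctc

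The MRPL17 window held 3 NRF1 matches, of which those starting at bases 170 and 172 overlap as one palindrome on opposite strands, and a GC box at base 273. MRPL53 held ETS matches at bases 179 and 251, the last overlapping a GC box at 256. MRPS18A held a CCAAT box, a GC box, an ETS match at base 220 and a YY1 match at base 260. MRPL37 held an E-box and a pair of CCAAT boxes, and MRPS11 none of the 7 motifs. MRPL52, without a listed peak, held an NRF1 match, YY1 matches at bases 153 and 187 and an ETS match at base 246.

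Mitochondrial ribosomal protein genes had JARID2 promoter peaks about as often as protein-coding genes in general, and with about as many tags. A promoter peak, which is one the authors placed within 3 kb of a transcription start site (TSS), was listed for 28 of 77 family genes (36.4%, exact 95% Clopper-Pearson interval 25.7 to 48.1). Among all 20037 protein-coding genes the share was 33.1%, inside that interval. A peak overlapping a TSS was listed for 15 family genes (19.5%, 11.3 to 30.1) against 13.8% of all protein-coding genes. A peak whose nearer edge lay within 1 kb of a TSS was listed for 23 (29.9%, 19.97 to 41.4) against 24.8%. The highest promoter peak per gene held a median of 16.5 tags (10 to 38) at 5.14-fold and an FDR of 42.9% in the family, against 17 tags, 5.95-fold and 41.4% over all protein-coding genes. Counting a peak of any class gave 41 genes (53.2%, 41.5 to 64.7) against 56.3%. These 4 intervals for the family all include the share over all genes. The shares over all genes also use older gene symbols, and with those the family had 30 genes with a promoter peak (39.0%, 28.0 to 50.8) and 17 with a peak over a TSS (22.1%, 13.4 to 33.0). The lower bound of the last, 13.4%, lies just under the 13.8% of all protein-coding genes.

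None of the family's peaks passed the strictest FDR limit used. At an FDR of at most 5%, 0 of 77 family genes had a promoter peak (exact interval 0 to 4.68%), against 2.47% of all protein-coding genes. At an FDR of at most 20% the count was 2 genes (2.60%, 0.316 to 9.07) against 5.44%. A peak-caller score of at least 50, where the lowest listed is 30, was reached by promoter peaks of 4 genes (5.19%, 1.43 to 12.8) against 9.89%. The family's shares at these limits lay below those of all genes, but each interval still included the share over all genes. Over all 71 member peaks, 50 (70.4%) had an FDR above 40%, against 70.3% of all listed peaks.

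**Figure D1:**
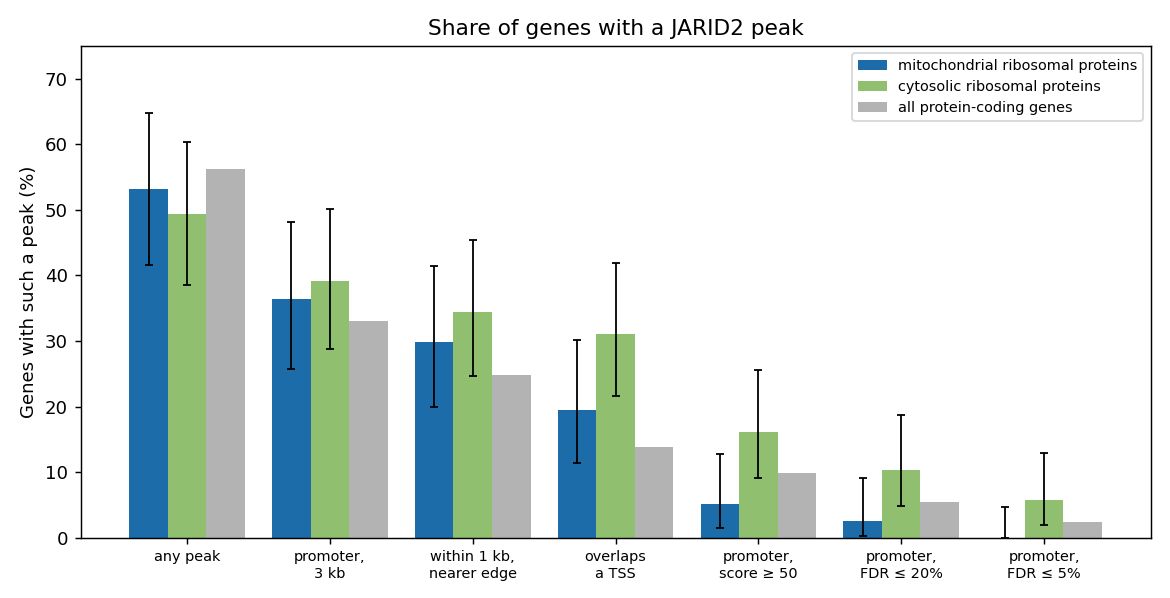
Percent of genes with a listed JARID2 peak under 7 definitions, for mitochondrial ribosomal protein genes (77), cytosolic ribosomal protein genes (87) and all protein-coding genes (20037). Bars start at 0, and error bars are exact 95% binomial intervals, which cover counting error only. The mitochondrial bars count peaks under the members' own symbols, and the other bars count older symbols too. The mitochondrial family lies close to all genes for promoter peaks (36.4% and 33.1%) and has none at an FDR of at most 5%.

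Large- and small-subunit genes had promoter peaks at near-equal rates. The count was 18 of 49 MRPL genes (36.7%, 23.4 to 51.7) and 10 of 28 MRPS genes (35.7%, 18.6 to 55.9). The symbol does not always name the subunit, since MRPS18A and MRPS30 proteins sit in the large subunit of the mammalian mitochondrial ribosome. Grouped instead by descent, proteins with a bacterial counterpart had promoter peaks at 19 of 45 genes (42.2%, 27.7 to 57.8) and proteins found only in mitochondrial ribosomes at 9 of 32 (28.1%, 13.7 to 46.7). With 2 peaks listed under older symbols, both at genes of mitochondria-specific proteins, that count was 11 of 32 (34.4%, 18.6 to 53.2). Large-subunit genes then had 20 of 49 (40.8%, 27.0 to 55.8). The intervals overlap widely in both splits. The highest promoter peak of each gene held a median of 17.5 tags for MRPL and 15 for MRPS. Median fold enrichment was 5.04 for those MRPL peaks and 6.07 for those MRPS peaks.

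Ranked by tags, MRPL17 led the promoter peaks. Its protein lies near the exit of the polypeptide tunnel of the large subunit. The peak held 38 tags on chromosome 11 (6703904 to 6704790, hg19), overlapping the TSS, with a 95% Poisson interval of 26.9 to 52.2 tags, a fold enrichment of 4.58 and an FDR of 44.2%. MRPL49, which encodes a mitochondria-specific large-subunit protein, followed with 34 tags, 4.04-fold and an FDR of 39.7% (chromosome 11, 64888876 to 64890065). The order at the top is not resolved by counting, since 6 other member peaks had tag counts inside the interval for MRPL17.

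Genes with similar tags differed widely in fold enrichment. MRPL37 with 33 tags and MRPS27 with 31, whose peaks lie off the listed start site and are described with the FDR values, had 5.71- and 8.40-fold. MRPL11, the counterpart of the bacterial L11 stalk-base protein, had 31 tags at 3.64-fold (chromosome 11, 66205706 to 66206872, FDR 45.3%). MRPL53, a mitochondria-specific large-subunit protein gene, had 30 tags at 4.68-fold (chromosome 2, 74699292 to 74700339, FDR 34.6%). MRPS15, the counterpart of a bacterial protein that binds the small-subunit rRNA, had 28 tags at 3.49-fold (chromosome 1, 36929628 to 36930305, FDR 47.1%). These 3 peaks overlapped the TSS and held more tags than the median of 17 for the highest promoter peak of all protein-coding genes. Their fold enrichments were below the corresponding median of 5.95.

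MRPL38 and MRPS18A had fewer tags and higher fold enrichment. MRPL38 encodes a mitochondria-specific protein of the large subunit, and its peak held 24 tags at 7.13-fold (chromosome 17, 73895511 to 73896469, FDR 30.6%). The start it overlaps is that of ENST00000486101, a listed transcript of only 938 bp, and its place relative to other MRPL38 starts was not determined. MRPL34, a small large-subunit protein, also had 24 tags but at 3.64-fold (chromosome 19, 17416583 to 17417492, FDR 44.0%). Its listed transcript spans 911 bp, against 14047 bp for the longest listed MRPL34 transcript with a peak. MRPS18A, 1 of 3 human paralogues of bacterial S18, had 23 tags at 7.28-fold (chromosome 6, 43654933 to 43655569, FDR 36.8%). Its paralogue MRPS18B had no listed peak, and MRPS18C had no promoter peak. MRPL1, the counterpart of the bacterial L1 stalk protein, had 20 tags at 4.85-fold (chromosome 4, 78783763 to 78784354, FDR 47.0%). MRPS11 had 18 tags and the largest fold enrichment of any member peak, 8.83 (chromosome 15, 89010256 to 89011006, FDR 31.1%).

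**Figure D2:**
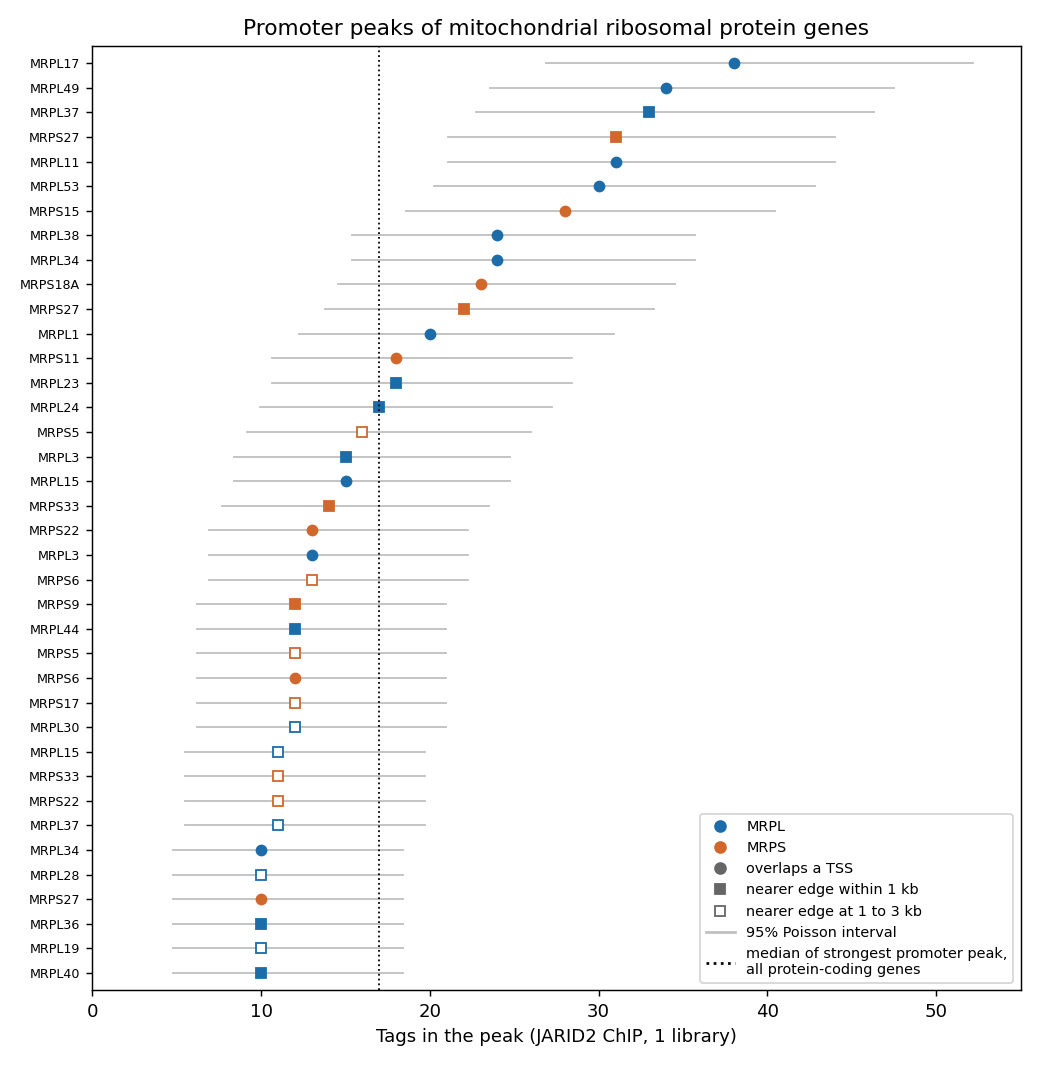
Tags in each of the 38 promoter peaks of mitochondrial ribosomal protein genes, in the 1 JARID2 ChIP library, with exact 95% Poisson intervals (grey lines). Colour gives MRPL or MRPS and symbol shape the place of the peak. The dotted line at 17 tags is the median of the highest promoter peak over all protein-coding genes. MRPL17 leads with 38 tags, and 16 peaks hold 10 to 12.

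The member peaks with the lowest FDR did not overlap the start of the transcript they were listed at. The lowest FDR, 7.39%, belonged to a peak at MRPS27, a mitochondria-specific small-subunit protein of the pentatricopeptide repeat class, with 31 tags at 8.40-fold (chromosome 5, 71534200 to 71535197). It lay upstream of the start of the listed transcript, with its nearer edge 243 bp away and its summit at -1038 bp, where negative positions are upstream. That transcript, ENST00000522562, spans 14328 bp, against 69938 bp for the longest listed MRPS27 transcript with a peak. The peak lies within the span of that longest transcript, and so inside the MRPS27 gene. MRPS27 had a further 2 promoter peaks, with 22 tags (5.16-fold, FDR 44.7%) and 10 tags (6.14-fold, FDR 43.9%), the first with its nearer edge 312 bp from the start of another listed transcript and the last over the start of one more. MRPL37, a mitochondria-specific large-subunit protein gene, had the second lowest FDR, 8.63%, with 33 tags at 5.71-fold (chromosome 1, 54664614 to 54665660). Its nearer edge lay 180 bp upstream of the listed TSS and its summit at -956 bp. MRPL30 and MRPL1 had the only other member peaks at an FDR of at most 20%, both outside promoters, with 22 tags (FDR 13.5%) and 24 tags (FDR 19.7%).

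Start-site peaks of genes with MRPL names had low fold enrichment for their tags. Of 9 MRPL genes with a peak over a TSS, 7 had a fold enrichment under 5, and of 6 MRPS genes 1 did. MRPS18A, at 7.28-fold, is counted here by its MRPS name although its protein sits in the large subunit. With older symbols it was 8 of 11 MRPL genes. Among all 2773 protein-coding genes with a peak over a TSS, 23.6% had one under 5. Taking the family's 9 start-site peaks with 20 to 38 tags, MRPL and MRPS together, the median fold enrichment was 4.58 and the median FDR 44.0%. All protein-coding genes in the same tag range (1130 genes) had medians of 5.72 and 31.6%. Peak widths in that range were similar, with medians of 910 bp in the family and 867 bp over all genes. The split at 5 and the tag range were set after the values were seen.

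Across the 38 member promoter peaks, tags followed width and not fold enrichment. Spearman's rho was 0.93 between tags and width and -0.27 between tags and fold enrichment. Over 8994 promoter peaks of all protein-coding genes the values were 0.91 and -0.03. All peaks share 1 library, so these are descriptions.

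**Figure D3:**
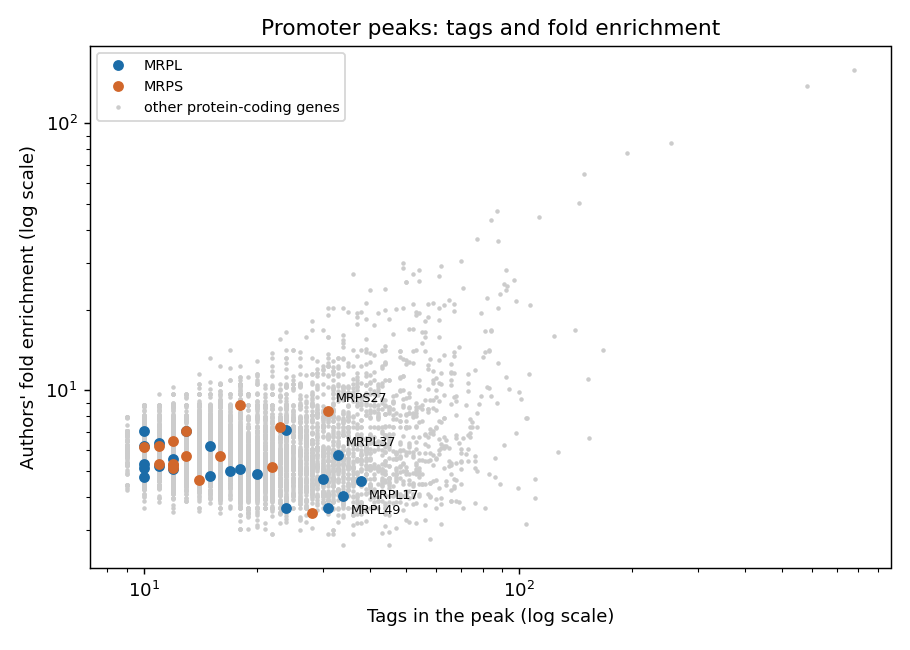
Tags and the authors' fold enrichment of each promoter peak, both on log axes, for MRPL (blue) and MRPS (orange) genes and for other protein-coding genes (grey). The member peaks lie between 10 and 38 tags and between 3.49- and 8.83-fold, and the peak of lowest FDR, at MRPS27, has 31 tags at 8.40-fold.

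Summits of the start-site peaks lay on both sides of the TSS. Of 16 member peaks overlapping a TSS, 9 had the summit upstream and 7 downstream, and 10 (62.5%) had it within 200 bp. Over the 2982 such peaks of all protein-coding genes, 57.2% had it within 200 bp. The summit lay 31 bp downstream of the TSS at MRPL17, at -23 bp at MRPL1 and at -57 bp at MRPS22, which encodes a mitochondria-specific small-subunit protein. At MRPL49 it lay at -482 bp and at MRPL38 at -631 bp, and at MRPL34 503 bp downstream. These positions are from the start of the listed transcript, which spans 938 bp at MRPL38 and 911 bp at MRPL34.

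**Figure D4:**
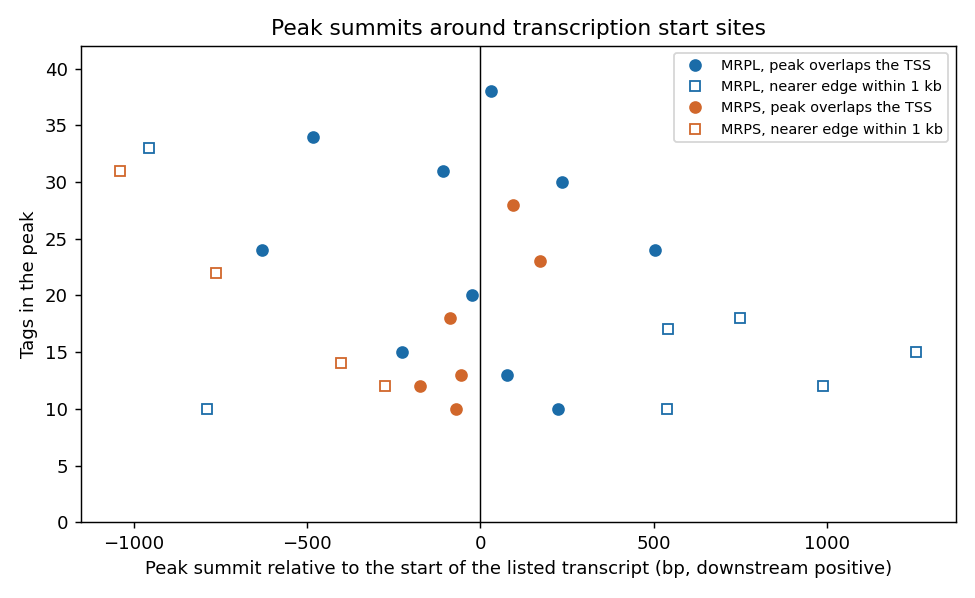
Summit of each member peak that overlaps a TSS (filled) or has its nearer edge within 1 kb of one (open), in bp from the start of the listed transcript with downstream positive, against its tags. The tallest peak, at MRPL17 with 38 tags, has its summit 31 bp downstream, while the peaks of MRPL37 and MRPS27 reach their summits about 1 kb upstream.

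Promoter peaks farther from the start site held fewer tags in the median, with 21.5 (10 to 38) for the 16 over a TSS. All protein-coding genes showed a like fall. By the highest peak per gene, their medians over a TSS, within 1 kb and within 3 kb were 23, 18 and 17 tags. The family's were 23, 18 and 16.5. The 11 peaks with a nearer edge 1 to 1000 bp from a TSS held 10 to 33 tags with a median of 15, the highest being those of MRPL37 and MRPS27 already described, the 6 between 1 and 2 kb 10 to 16 and the 5 farther out 10 to 12. MRPL23 and MRPL24, whose proteins line the exit of the tunnel, had 18 tags (5.09-fold, FDR 38.3%, chromosome 11, 1969122 to 1969857) and 17 tags (4.99-fold, FDR 41.6%, chromosome 1, 156709503 to 156710218). MRPL3, a core large-subunit protein, had 15 and 13 tags in a pair of peaks, and MRPL15 had 15 and 11. MRPS5, a small-subunit protein, had 16 tags (5.66-fold, FDR 34.9%, chromosome 2, 95769035 to 95769647) and 12 tags. MRPS33 had 14 and 11, MRPS22 13 and 11, and MRPS6 13 and 12. Both MRPL15 peaks were listed at the same transcript, of 11351 bp. In each of the other pairs the peaks were listed at different transcripts, for MRPS22 of 12450 and 351241 bp. MRPS9, MRPL44, MRPS17 and MRPL30 had 12 each, and MRPL36, MRPL28, MRPL19 and MRPL40 had 10 each. MRPL37 and MRPL34 had second promoter peaks of 11 and 10 tags. Not all of these lay off the start site. The 15-tag MRPL15, 13-tag MRPL3, 13-tag MRPS22, 12-tag MRPS6 and 10-tag MRPL34 peaks overlapped a TSS. The smallest tag count of any listed peak in the map is 9, so the 16 promoter peaks with 10 to 12 tags are close to the limit of the list. For the genes from MRPL23 to MRPL40 named here, fold enrichments lay between 4.63 and 7.06 and FDRs between 34.9% and 48.8%.

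Listed distances to the TSS were made differently on the strands. For all 32626 peaks off the TSS of a plus-strand transcript the listed distance runs to the nearer edge of the peak, and for all 30777 on the minus strand to the farther edge, within 1 bp. The MRPS27 peak above is therefore listed at -1240 bp. Measured to the nearer edge on both strands, the family counts were the same, 28 genes within 3 kb (34.1% of all protein-coding genes) and 23 within 1 kb.

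Of 41 genes with a peak, 13 had none in a promoter. The 33 member peaks outside promoters comprised 18 in introns, 10 in distal intergenic sequence, 2 in exons, 2 in 3′ untranslated regions and 1 downstream of a gene. They held 9 to 24 tags. Of the intron peaks 5 lay in another gene than the one named. A pair of peaks named for MRPS18C lay in introns 12 and 14 of HELQ, a DNA helicase gene, and the peak named for MRPS10 in intron 13 of TRERF1, nearly 70 kb from the MRPS10 start. MRPS22 had 5 peaks of 10 to 19 tags and MRPS6 5 of 9 to 13, the most of any member, followed by MRPS27 and MRPS9 with 4 each. Apart from the 13-tag one, the MRPS22 peaks were listed by the start or an intron of ENST00000495075, which spans 351241 bp. The 13-tag peak lay over the start of another transcript, of 12450 bp. None of the MRPS6, MRPS9 and MRPS22 peaks had an FDR under 34.6%. Promoter peaks were 53.5% of the family's peaks, against 29.6% of the 30368 peaks given to protein-coding genes. Counted by gene, the shares with a promoter peak were close, at 36.4% and 33.1%. Gene length was not taken into account in either comparison.

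For 36 family genes no peak carried the symbol. MRPL57 and MRPL58, which encode large-subunit proteins, the last also a peptide-release enzyme, stand in the list under the older symbols MRP63 (16 tags, 4.24-fold, FDR 47.3%) and ICT1 (20 tags, 5.55-fold, FDR 48.7%). Both peaks overlap a TSS, and with them 30 of 77 genes (39.0%) had a promoter peak. The other genes without a peak include MRPL12, whose protein forms the L7/L12 stalk, MRPS12, at the decoding centre, MRPL45, at the tunnel exit, and MRPS2, MRPS7, MRPS14 and MRPS16 of the small subunit.

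Several family genes share a promoter region with a gene running the other way, and the list gives each peak to 1 gene. On GRCh38.p14, 26 of the 69 family genes with a RefSeq promoter had a neighbour on the opposite strand that started within 1 kb upstream of it and ran away from it. In 6 pairs the neighbour had a peak within 1 kb of its TSS, and 5 of these family genes had no promoter peak of their own. MRPL46 is paired with MRPS11, so the MRPS11 peak of 18 tags is the nearest to another member too. MRPS12 is paired with SARS2, the mitochondrial seryl-tRNA synthetase gene (22 tags, 5.20-fold, FDR 31.4%, chromosome 19, 39421435 to 39422052). MRPL51 is paired with NCAPD2, a condensin subunit gene (33 tags, 5.49-fold, FDR 31.2%). MRPS16 is paired with DNAJC9-AS1 (30 tags, 4.37-fold) and MRPL50 with ZNF189 (18 tags, 4.85-fold). At MRPL30 the neighbour MITD1 had 10 tags. Counting those 5 genes gave 33 of 77 (42.9%, 31.6 to 54.6), and 35 (45.5%, 34.1 to 57.2) with older symbols. The same rule over all protein-coding genes gave 34.9%, just above the lower bound of the last. A RefSeq promoter, which the rule needs, was at hand for 69 of 77 family genes and for 15843 of 20037 protein-coding genes, so neighbours were looked for more fully in the family. MRPL49 is paired with FAU, a cytosolic ribosomal protein gene, which had no peak within 1 kb under its own name. MRPL37 is paired with CYB5RL, which also had none under its own name. Whether the 33-tag peak upstream of MRPL37 overlaps the CYB5RL start was not determined.

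Family promoters often carried ETS and YY1 letters. An ETS match stood in 29 of 69 family promoters (42.03%), against 14.2% of 15843 protein-coding promoters of the same length. A YY1 match stood in 20 (29.0%) against 3.91%, and an NRF1 match in 6 (8.70%) against 4.26%. GC box letters stood in 30 (43.5%) against 41.6%, and E2F letters in 3 (4.35%) against 4.24%, both near the share over all promoters. How ETS and YY1 letters divided by peak depended on the symbol a peak carries. A gene counted as having a peak when a peak lay within 1 kb of the start of any of its listed transcripts. That start need not be the one whose promoter was searched. The MRPS9 peak lies at a listed transcript of 7803 bp, against 61978 bp for the longest listed with a peak. Whether the searched promoters themselves hold a peak was not determined. By the members' own symbols, promoters of 21 genes with such a peak had the ETS letters in 7 (33.3%) and the YY1 letters in 4 (19.0%). For the 48 genes without one the counts were 22 (45.8%) and 16 (33.3%). Those 48 include genes whose peak is listed under an older symbol or at a divergent neighbour. Counting such peaks, promoters of 12 of 29 genes with a peak (41.4%) had the ETS and 8 (27.6%) the YY1 letters. Of the 40 genes without one, 17 (42.5%) and 12 (30%) did. Median GC content by the same counting was 60.3% with and 60.5% without a peak, against 62.7% in all protein-coding promoters. A match is a description of the sequence, not of a bound factor.

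Set beside cytosolic ribosomal protein genes, the mitochondrial family had fewer start-site peaks in the same list. A peak over a TSS was listed for 15 of 77 mitochondrial genes (19.5%, 11.3 to 30.1) and for 27 of 87 cytosolic genes (31.0%, 21.5 to 41.9). The cytosolic counts also use older symbols, and with those the mitochondrial count was 17 (22.1%, 13.4 to 33.0). Promoter peaks counted that way were about as common in both families, at 39.0% and 39.1%. The highest promoter peak per gene held a median of 16.5 tags at the 28 mitochondrial genes and 27.5 tags at the 34 cytosolic genes (39.1%) that had one. An FDR of at most 5% was reached at 0 of 77 mitochondrial genes and at 5 of 87 cytosolic genes (5.75%, 1.89 to 12.9). The intervals of these shares overlap, and the difference was not tested.

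Over 7 lists of other genes of mitochondrial gene expression and respiration, 40 of 148 genes (27.0%, 20.1 to 34.9) had a promoter peak. At an FDR of at most 5%, 0 of 148 had one, against 2.47% of all protein-coding genes. The smallest list, proteins of the mitoribosome or bound to it under other symbols, had 3 of 6, with the membrane insertase gene OXA1L at 40 tags (4.37-fold, FDR 43.9%), DAP3 at 21 and PTCD3 at 10. Mitochondrial translation factors had 4 of 14, led by TACO1, an activator of COX1 translation, with 52 tags (4.89-fold, FDR 7.39%). TUFM, the mitochondrial elongation factor Tu, had 9. Mitochondrial aminoacyl-tRNA synthetases and partner enzymes had 6 of 22, led by GATB, listed as PET112 (25 tags, 6.47-fold, FDR 14.4%) and SARS2. Mitoribosome assembly factors also had 6 of 22, led by the rRNA-binding GTPase gene ERAL1 (32 tags, 3.85-fold, FDR 47.3%) and METTL15 (28 tags, 7.63-fold, FDR 35.4%). Mitochondrial transcription and DNA maintenance genes had 2 of 9, POLG2 with 26 tags and POLRMT with 10. Complex I subunits had 11 of 37, led by NDUFA7 (45 tags, 6.17-fold, FDR 5.12%), and subunits of complexes II to V 8 of 38, led by the ATP synthase gene ATP5MG, listed as ATP5L (51 tags, 3.21-fold, FDR 37.7%). These shares stand beside 33.1% for protein-coding genes in general. The 3 of 6 is above it, but its interval, 11.8 to 88.2%, includes it.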

How the data were processed

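JARID2 ChIP was carried out on untreated MDA-MB-231 cells. The submitters' processing notes name hg19 and, without roles, Bowtie 0.12.8, bcl2fastq, ChIPseeker, MACS and MACS2. Caller settings, and whether the input library entered, are not stated in what was used here. The authors' tags are raw counts of reads in a peak. Their fold enrichment was deposited as a ratio over the caller's background, and FDR in percent, per the file headers. The header of another deposited column was unreadable, and it was taken as the caller's score, a multiple of −log10 p, because of its position and minimum of 30. Depth is unknown, since a peak list is no whole library, and intervals cover counting error only.

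Here, symbols were matched to 20037 protein-coding genes of RefSeq (GRCh38.p14) by symbol or by a synonym of 1 gene, and members by symbol alone. Shares have exact Clopper-Pearson intervals (95%) and tags exact Poisson intervals (scipy 1.17.1, pandas 2.3.3). No test was made, since 1 library has no replicate. Members and lists were chosen with earlier results of these data known. Full values were set for the 15 members with most promoter tags, any at an FDR of at most 5% (there were 0), the members with most peaks, up to 4 genes of each related list and divergent neighbours with a peak. The MRPL30 and MRPL1 peaks outside promoters, and the motifs and summits shown, were chosen after the values were seen. Cytosolic genes were RefSeq symbols RPL or RPS with a number (lettered and L-type paralogues included), RPLP0 to RPLP2 and RPSA. Motifs were searched in the RefSeq promoter listed at the top for each gene. Alternatives were other promoter reaches, FDR and score limits, any peak, divergent neighbours, merged peaks, and, added after the data were seen, older symbols, divergent neighbours in the motif counts and distances to the nearer edge. The counting steps were checked on simulated data.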

Additional observations from a re-analysis of the deposited data

How the results depend on the processing

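Counts of genes with a promoter peak depended on the limit set. Of 28 family genes, 18 MRPL and 10 MRPS at the authors' list, peaks over a TSS left 15, 9 and 6. A score of at least 50 left 4, 2 and 2, an FDR of at most 20% left 2, 1 and 1, and an FDR of at most 5% left 0, 0 and 0. These fall by construction, as fewer peaks are counted. Any peak gave 41, 24 and 17. A reach of 1 kb (23), divergent neighbours (33), older symbols (30), other mitoribosome proteins (31 of 83) and the nearer edge (28 within 3 kb, 23 within 1 kb) moved the family count by less than 1.5 times. The difference in ETS and YY1 shares between promoters of genes with and without a peak was nearly gone once older symbols and divergent neighbours were counted. That alternative was chosen after seeing the data. Median tags of the highest promoter peak were 16.5, and 13.5 to 23 under other settings except an FDR of at most 20%, where 2 genes gave 32. Median fold enrichment was 5.14, and 4.85 to 5.60 elsewhere. No paired analysis was possible because each group has 1 library. Tags of 10 have a 95% Poisson interval of 4.80 to 18.4, which spans most of the listed promoter peaks.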

Other observations

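Peaks were also listed for the family's pseudogenes, which were left out above. Pseudogenes without a peak were not counted, so the numbers below give no share of pseudogenes with a peak. There were 71 peaks at 41 family genes, of which 38 were in the promoter class, and 91 peaks at 34 pseudogenes, of which 11 were. The median peak held 13 tags at family genes, 12 at pseudogenes and 12 over all listed peaks, and the lowest pseudogene FDR was 6.53%. Median fold enrichment was 5.54 for member peaks and 5.95 for all listed peaks. The distance column also bears on counts outside the family. Of promoter peaks at protein-coding genes, 2166 on the minus strand were within 1 kb by the listed distance and 2901 by the nearer edge, against 3080 and 3081 on the plus strand. A further 758 peaks, all at minus-strand transcripts, lay within 3 kb by the nearer edge but outside the promoter class.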
